A study of Homo sapiens with 4 samples.

Results

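The laminin chains are a family of 9 genes here, the alpha chains LAMA1 to LAMA5, the beta chains LAMB1 to LAMB3 and the gamma chain LAMC1, chosen by name from the 22851 gene symbols to which the counted RefSeq transcripts were assigned. All 9 were found. They were followed by RNA sequencing in PC-3M-luc, a human prostate carcinoma line that is a metastatic, luciferase-carrying derivative of the PC-3 line. One group of 2 libraries came from cells transfected with a control RNAi duplex, and the other 2 came from cells given RNAi against LSD1, the histone demethylase encoded by KDM1A. Both groups had passages 17 to 20, medium with 10% FBS, the transfection reagent Dharmafect 2 and a harvest 72 h after transfection in common, and the labels call the libraries biological replicates. The duplex sequences are not known here, and all 4 libraries are of this single line, so the comparison is a transient knockdown in one cell line and not a knockout.

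A laminin is a cross-shaped protein of the basement membrane, built from 1 alpha, 1 beta and 1 gamma chain that wind into a coiled coil inside the cell and are secreted as a trimer. Trimers are named by their chains, so LM511 holds alpha 5, beta 1 and gamma 1. The alpha chain carries the globular domains that bind integrins and dystroglycan on the cell surface, while the beta and gamma chains set which alpha chains can be joined and, with the alpha chain, how the trimer polymerizes. In the normal prostate the basal cells rest on LM332 and LM511, and loss of LM332 chains has been described in prostate carcinoma.

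Counts assigned to genes ran from 12041277 to 12832072 per library. The floor of detection, taken as 3 counts, stood for 0.234 to 0.249 per 1000000 of these counts, without TMM scaling. All CPM values other than this floor are counts scaled to the TMM library size and expressed per 1000000. KDM1A, the target, had 2920 and 2892 counts in control and only 218 and 234 after knockdown, which fits the labels. The chi-square between libraries, per gene, was 5.0 within the control group and 4.30 within the knockdown group, so that neither pair was a repeat of one library, and 26.7 to 29.1 across groups. The epithelial genes KRT8, KRT18, KRT19, EPCAM and CDH1 were all present, with a summed level of 999 to 1113 CPM, and KRT8, EPCAM and CDH1 were higher after knockdown. KRT18 and KRT19, at log2 fold changes of -0.12 and -0.066, did not reach an adjusted p under 0.05 in edgeR. KLK2 and KLK3 were at 0 in every library. Of markers of other cell types, PTPRC, CD3E, CDH5, DES and HBB were at 0 in every library. The summed level of the 5 leukocyte markers, nearly all of it the lysosomal gene CD68, was 91.1 and 88.9 CPM in control and 47.4 and 49.9 CPM in knockdown libraries. The 4 endothelial markers summed to 23.5 and 31.9 CPM against 60.2 and 53.9 CPM, mostly KDR, which rose, while PECAM1 was called lower. The 5 fibroblast and smooth muscle markers summed to 49.4 and 52.9 CPM against 56.6 and 61.5 CPM. Their part in the laminin values was not tested, and in bulk RNA fewer cells of a kind and less RNA per cell cannot be told apart.

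The comparison asks how the RNA of each chain differed between LSD1 knockdown and control cells. LAMA3 rose, LAMA4 and LAMB3 fell, and the other 5 chains tested, LAMA2, LAMA5, LAMB1, LAMB2 and LAMC1, were not called, that is, they did not reach an adjusted p under 0.05 in edgeR's quasi-likelihood test over 13252 genes. The ninth chain, LAMA1, was too rare to test. All called changes were small, at most 1.32-fold. Of the 8 chains tested, 1 was called higher and 2 lower, whereas 36.1% of all tested genes were called, 18.2% higher and 17.9% lower. The share of called laminin chains, 3 of 8, was thus near that of genes in general. The groups did not overlap for 4 of the 8, LAMA3, LAMA4, LAMB3 and LAMC1, against 67.2% of all tested genes. The median log2 fold change of the 8 chains was -0.07, beside 0.0024 over all tested genes.

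**Figure D1:**
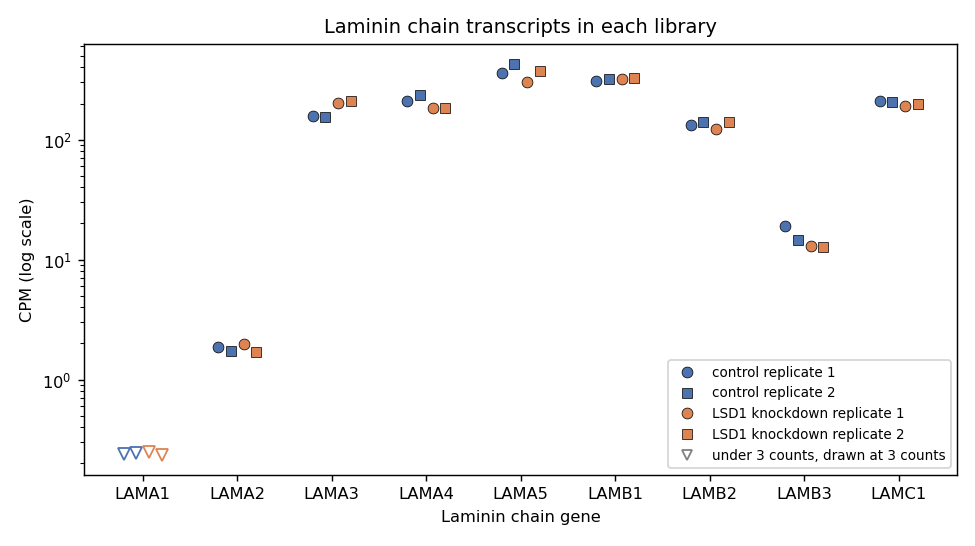
CPM on a log axis for each of the 9 laminin chain genes in each of the 4 libraries, with circles for replicate 1, squares for replicate 2, blue for control and orange for LSD1 knockdown. LAMA3 lies higher in both knockdown libraries, LAMA4 and LAMB3 lie lower, and the open triangles place LAMA1 at the level of 3 counts, since it had at most 1 count. That level is not TMM-scaled, unlike the other points.

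Among the alpha chains, LAMA3 encodes alpha 3, the alpha chain of LM332 beneath hemidesmosomes. It stood at 158 and 155 CPM in control and at 203 and 209.8 CPM in knockdown libraries. Both knockdown libraries were above both controls, with little spread within either group. This was a 1.32-fold rise, a log2 fold change of 0.40 (standard error 0.0802, edgeR adjusted p = 0.000205), and it was called under all 16 other settings and rows tried.

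LAMA3 gives rise to a short and a long form from separate start sites, known as alpha 3A and alpha 3B, and the 4 rows of the gene in the tables follow these forms. The long row, NM_198129, stood for the gene in the fit. The short row, NM_000227, had 1378 and 1249 counts in control and 1768 and 1914 counts in knockdown libraries, and its log2 fold change of 0.45 (edgeR adjusted p = 5.84e-05) was close to that of the long row. Rows of a gene count the same reads where their exons are shared, so they are not independent. The long row exceeded the short row by 586 and 640 counts in control and by 709 and 801 counts in knockdown libraries. These counts fall on the 5366 bases that only the long form holds, less those on the 376 bases that only the short form holds. The excess came to 109 and 119 counts per kilobase in control and to 132 and 149 counts per kilobase in knockdown libraries. The short row held 243 and 220.2 counts per kilobase in control and 312 and 338 counts per kilobase in knockdown libraries. The part found only in the long form was thus covered at 44.9% and 54.2% of the density of the short row in control, and at 42.4% and 44.2% in knockdown libraries. Both parts of LAMA3 were higher in each knockdown library than in either control library, and the share of the long part was lower in knockdown libraries by less than the gap between the control libraries. Position along a transcript can itself set read density, and its part in these ratios was not tested.

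**Figure D2:**
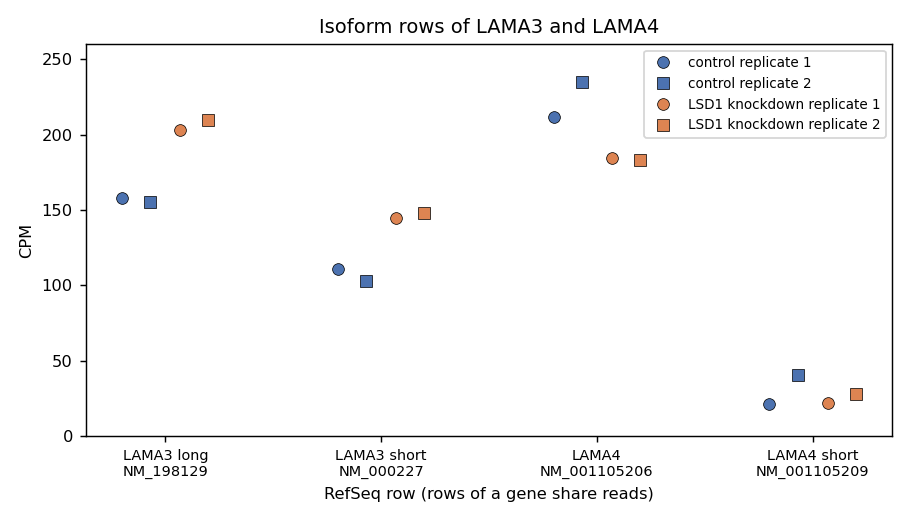
CPM of 4 RefSeq rows in each library, the long and short rows of LAMA3 and a full-length and a short row of LAMA4, with symbols as in the plot of all chains. Both LAMA3 rows are higher in both knockdown libraries, while the short LAMA4 row is highest in control replicate 2.

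The start of the short LAMA3 form is the one for which the RefSeq promoter table (GRCh38.p14) holds a sequence, and it is shown with that of LAMA4 because these are the abundant alpha chains called in opposite directions. Each line gives the 250 bases before the start, 5′ to 3′ on the gene's strand, with LAMA3 at chr18:23872770-23873019 on the plus strand and LAMA4 at chr6:112254568-112254817 on the minus strand. Capitals mark matches to TGANTCA, the core sequence bound by AP-1, which reads the same on both strands.
LAMA3: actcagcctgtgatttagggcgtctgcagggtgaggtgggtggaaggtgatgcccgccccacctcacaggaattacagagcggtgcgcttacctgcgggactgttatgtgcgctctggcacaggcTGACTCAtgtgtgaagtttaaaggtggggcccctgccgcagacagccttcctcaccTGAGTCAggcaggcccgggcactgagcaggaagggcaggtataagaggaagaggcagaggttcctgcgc
LAMA4: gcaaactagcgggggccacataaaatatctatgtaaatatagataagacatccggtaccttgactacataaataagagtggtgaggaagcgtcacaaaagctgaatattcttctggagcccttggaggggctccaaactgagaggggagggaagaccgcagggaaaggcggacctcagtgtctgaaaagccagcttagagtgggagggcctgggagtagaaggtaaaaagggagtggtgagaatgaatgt
LAMA3 held 2 matches, which begin 69 and 125 bases before the start, and LAMA4 held none. The table has 10 promoters for 8 of the 9 chains. Besides LAMA3, the match was found in 1 of the 3 LAMB3 promoters, 67 bases before its start, so a match stood both in the chain that rose and in one that fell. Of all 35116 promoters in the table, 6.57% held a match within the same 250 bases. CpG dinucleotides numbered 9 in the LAMA3 window, 5 in that of LAMA4 and 3, 10 and 8 in those of LAMB3, against a median of 11 over the table. Among chains not called they numbered 9 for LAMA2, 12 for LAMB2, 28 for LAMB1 and 32 each for LAMA5 and LAMC1, so both CpG-poor and CpG-rich windows were found there. Binding at these sites was not measured.

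LAMA4 encodes alpha 4, a chain with a shortened amino-terminal arm that is common in endothelial and mesenchymal basement membranes. It stood at 212 and 235 CPM in control and at 185 and 183 CPM in knockdown libraries. Both knockdown libraries were below both controls, and the control libraries lay further apart than the knockdown libraries. This was a 1.21-fold fall, a log2 fold change of -0.28 (standard error 0.0819, edgeR adjusted p = 0.00714). Without control replicate 2 it was -0.20 and no longer called (edgeR adjusted p = 0.135). The gene also has a pair of short rows, NM_001105208 and NM_001105209, and the latter had 265 and 496 counts in control and 269 and 361 counts in knockdown libraries. In these short rows the groups overlapped, and neither was called (edgeR adjusted p = 0.137 and 0.142). The exons of LAMA4 share 206 bases with Z99289.1 on the opposite strand, and no source states whether reads were counted by strand.

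LAMA5 encodes alpha 5, the alpha chain of most adult epithelia, and had the highest mean CPM of the family in both groups, although LAMB1 was above it in knockdown replicate 1. It stood at 359.6 and 431 CPM in control and at 303 and 373 CPM in knockdown libraries. Replicate 2 was the higher library in each group, and the groups overlapped. The log2 fold change of -0.23 (standard error 0.0939, 95% interval from -0.42 to -0.03) missed the threshold (edgeR adjusted p = 0.059). Without control replicate 1 the log2 fold change was -0.35 (edgeR adjusted p = 0.00355), and without knockdown replicate 2 it was -0.38 (edgeR adjusted p = 0.00200). Without control replicate 2 it was -0.089 and without knockdown replicate 1 it was -0.088, neither of them called, so that the call of LAMA5 rested on which library was kept. LAMA5 shares 118 exonic bases with its antisense gene LAMA5-AS1.

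LAMA2, the alpha chain of muscle and nerve laminins, and LAMA1, the alpha chain of early embryonic basement membranes, were scarce. LAMA2 had 23 and 21 counts in control and 24 and 22 counts in knockdown libraries, or 1.70 to 1.96 CPM. Its log2 fold change was 0.03, with a 95% interval from -0.63 to 0.70 that leaves room for changes larger than any called in the family. LAMA1 had 0 counts in both control libraries and 1 count in each knockdown library. By the floor, which is not TMM-scaled, 0 counts allow up to 0.240 and 0.242 CPM in the control libraries. A difference in LAMA1 was not detectable at this depth, and no fold is given.

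Of the beta chains, LAMB1 encodes beta 1, the usual partner in LM111, LM211, LM411 and LM511. It stood at 308 and 321.2 CPM in control and at 319 and 327 CPM in knockdown libraries, with overlapping groups. The log2 fold change was 0.04, with a 95% interval from -0.12 to 0.20. LAMB1 shares 70 exonic bases with DLD on the opposite strand, whose mean count was 815 beside 3965 for LAMB1.

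LAMB2 encodes beta 2, which stands in for beta 1 at the neuromuscular synapse and in the kidney glomerulus. It stood at 132 and 139.6 CPM in control and at 122 and 141 CPM in knockdown libraries. The knockdown libraries lay on either side of the controls, and the log2 fold change was -0.04, with a 95% interval from -0.22 to 0.13.

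LAMB3 encodes beta 3, which is found in LM332. It had 237 and 176 counts in control and 160 and 164 counts in knockdown libraries, or 19.1 and 14.5 CPM against 13.1 and 12.7 CPM. Both knockdown libraries were below both controls, but control replicate 2 was nearer to them than to control replicate 1. This was a 1.30-fold fall, a log2 fold change of -0.38 (standard error 0.143, edgeR adjusted p = 0.0344). Without control replicate 1 it was -0.17 (edgeR adjusted p = 0.511), and the call was also lost without either knockdown library, at edgeR adjusted p-values of 0.0574 and 0.113. It was not among the calls of DESeq2 (adjusted p = 0.210).

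LAMC1 encodes gamma 1, the gamma chain of all the named trimers but LM332. It stood at 209 and 208 CPM in control and at 189.8 and 197 CPM in knockdown libraries. The knockdown libraries were slightly below the controls, at a log2 fold change of -0.11 (95% interval from -0.27 to 0.05, edgeR adjusted p = 0.304), which was not called. Of the laminin genes outside the family as chosen here, LAMC3, which encodes gamma 3, rose from 18.3 and 17.9 CPM to 24 and 27.2 CPM. Its log2 fold change was 0.50 (standard error 0.119, edgeR adjusted p = 0.00113). LAMB4 was at 11 to 24 counts in the 4 libraries and was not called.

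**Figure D3:**
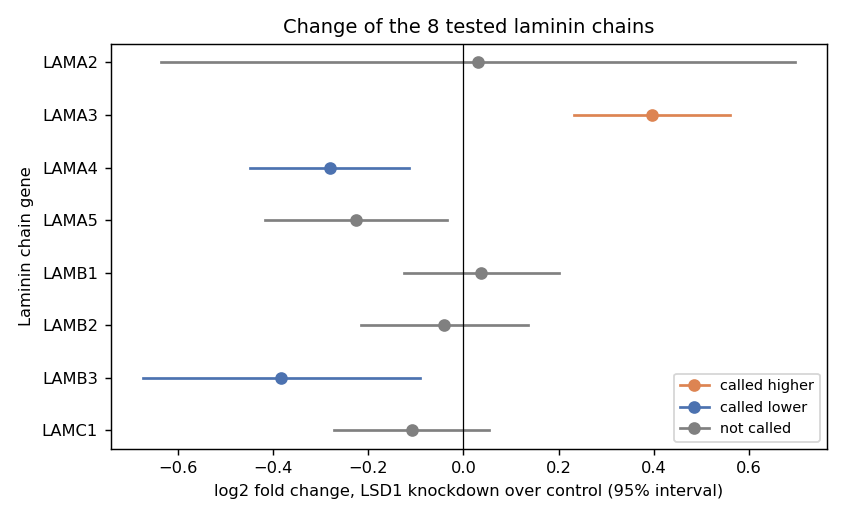
Log2 fold change of LSD1 knockdown over control for the 8 laminin chains that were tested, with points for the estimate and bars for the 95% interval. The interval of LAMA3 lies above 0, those of LAMA4, LAMB3 and LAMA5 lie below 0, and LAMA5 was not called after adjustment over all genes.

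To compare levels between chains, CPM was divided by the length of the matching GENCODE transcript in kilobases. On this scale LAMB1 was the most abundant chain, at 55 ± 1.60 CPM per kilobase in control and 56.4 ± 1.07 in knockdown cells (SD, n = 2 each). LAMA5 followed at 34.6 ± 4.43 and 29.6 ± 4.35, then LAMA4 at 34.1 ± 2.54 and 28.1 ± 0.163 CPM per kilobase (SD, n = 2 each), and these neighbours overlapped in both groups. LAMC1 came next at 26.4 ± 0.0967 and 24.5 ± 0.643 CPM per kilobase, then LAMB2 at 23.9 ± 0.993 and 23.2 ± 2.34 (SD, n = 2 each). LAMC1 and LAMB2 were apart in control libraries and overlapped in knockdown libraries. LAMA3 was lower still, at 14.7 ± 0.175 and 19.4 ± 0.468 CPM per kilobase, and LAMB3 reached only 3.90 ± 0.755 and 2.99 ± 0.0695 (SD, n = 2 each). LAMA2 was near 0.19 CPM per kilobase in both groups. The order of the 9 chains was the same in the control and the knockdown group. It depended on the length used: by coding length LAMC1, which has a long untranslated part, stood at 43.2 and 40.1 CPM per kilobase in control and knockdown cells, above LAMA4 at 40.8 and 33.6 and LAMA5 at 35.7 and 30.5.

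The makeup of the alpha chain pool was then read from each library. In the summed per-kilobase level of the 5 alpha chains, LAMA3 made up 18.8% and 16.5% in control and 25.7% and 24.4% in knockdown libraries. LAMA4 made up 41.0% and 40.6% against 38.1% and 34.7%, and LAMA5 39.9% and 42.7% against 35.9% and 40.6%. The shares of LAMA3 and LAMA4 did not overlap between groups, whereas those of LAMA5 did. Set against LAMA4, LAMA3 was at 45.9% and 40.6% of its per-kilobase level in control and at 67.5% and 70.4% in knockdown libraries. With 2 libraries a group an exact permutation test cannot go below p = 0.33, so these shares were not tested. Taking the short LAMA3 row with its own length put the LAMA3 share at 21.6% in control and 30.9% in knockdown cells, a difference in the same direction.

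The beta pool was mostly LAMB1 in all libraries, at 66.1% and 66.7% in control and 69.3% and 67.3% in knockdown libraries. LAMB2 made up 28.5% and 29.3% against 26.9% and 29.3%, with overlapping groups. LAMB3 made up 5.44% and 4.0% in control and 3.79% and 3.46% in knockdown libraries.

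**Figure D4:**
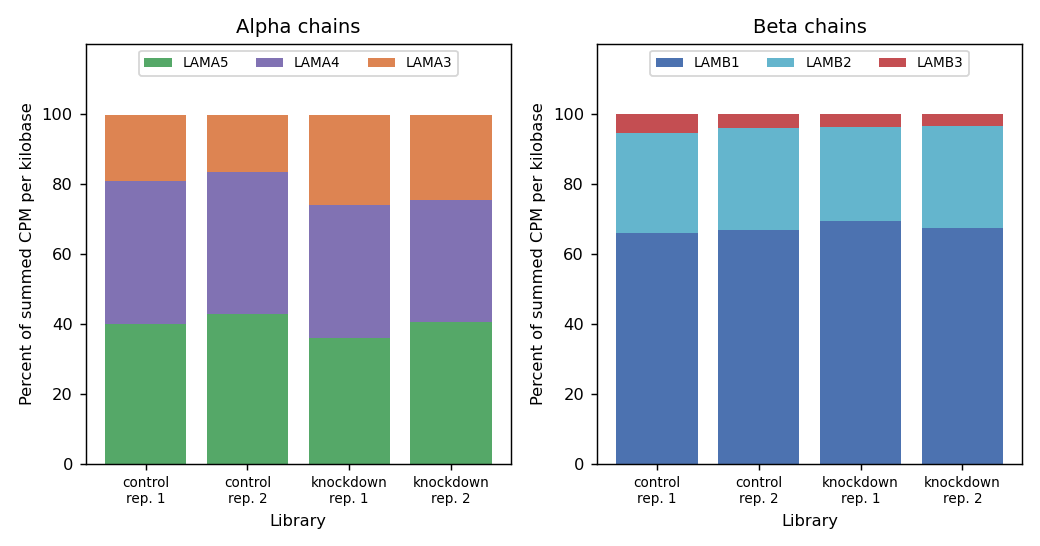
Share of each alpha chain (left) and beta chain (right) in the summed CPM per kilobase of its class, one stacked bar per library. LAMA1 and LAMA2 together stay under 1% and are not drawn. The LAMA3 segment is larger in both knockdown libraries, at 25.7% and 24.4%, than in the control libraries, at 18.8% and 16.5%.

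Which trimers the cells had the RNA to form was read from the scarcest chain of each trimer on the per-kilobase scale. Only RNA was measured, so this gives the chains available and not the assembled or secreted protein. All the trimers read here share LAMC1, so their levels cannot be added up. Per kilobase of transcript, the summed alpha chains were at 2.97 to 3.35 times LAMC1 across the libraries. The summed beta chains were at 3.07 to 3.41 times LAMC1. Both ratios depend on the length used, since by coding length LAMC1 itself stood at 43.2 and 40.1 CPM per kilobase in control and knockdown cells. How LAMC1 was split among the trimers was not measured. All 3 chain RNAs were well above the floor in both groups for LM311, LM321, LM411, LM421, LM511 and LM521. In LM411 and LM511 the scarcest chain was LAMC1, at 26.5 and 26.4 CPM per kilobase in control and 24.1 and 25.0 in knockdown libraries. By coding length the scarcest chain was instead LAMA4 in LM411 and LAMA5 in LM511, in all 4 libraries. For LM421 and LM521 the scarcest chain was LAMB2, at 23.2 and 24.6 in control and 21.6 and 24.9 CPM per kilobase in knockdown libraries. For LM311 and LM321 it was LAMA3, read from its long row, at 14.8 and 14.6 in control and 19.0 and 19.7 CPM per kilobase in knockdown libraries. With the short LAMA3 row the alpha 3 chain stood at 19.6 and 18.1 CPM per kilobase in control and 25.5 and 26.1 in knockdown libraries, above LAMC1 in both knockdown libraries and below it in both controls. By coding length the short row, at 28.0 and 28.6 CPM per kilobase after knockdown, stayed below LAMC1, at 39.3 and 40.8, so its place relative to LAMC1 rested on the length used. Under either length the short row was below LAMB2 in both controls and above LAMB2 in both knockdown libraries. By coding length LAMB2 stood at 24.4 and 25.9 in control and 22.7 and 26.2 in knockdown libraries. With the short row LAMB2 was thus the scarcest chain of LM321 after knockdown.

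LM211 and LM221 had LAMA2 as the scarcest chain, at 0.176 to 0.204 CPM per kilobase, and LM111 and LM121 had LAMA1, which had at most 1 count. Neither group therefore showed more than a trace of these alpha chains. LAMB3, whose beta 3 chain is in none of these trimers, was at 4.43 and 3.37 in control and 3.04 and 2.94 CPM per kilobase in knockdown libraries. It stood at 29.9% and 23.1% of the long LAMA3 row in control and at 16.0% and 15% in knockdown libraries. The short LAMA3 row stood higher, at 19.6 and 18.1 in control and 25.5 and 26.1 CPM per kilobase in knockdown libraries. Against the short row the percentages of LAMB3 are thus lower. LAMB3 was thus the scarcer of the pair in all 4 libraries. Of the 10 trimers considered, every one detected in control cells was also detected after knockdown, and none appeared in one group alone above the floor.

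**Figure D5:**
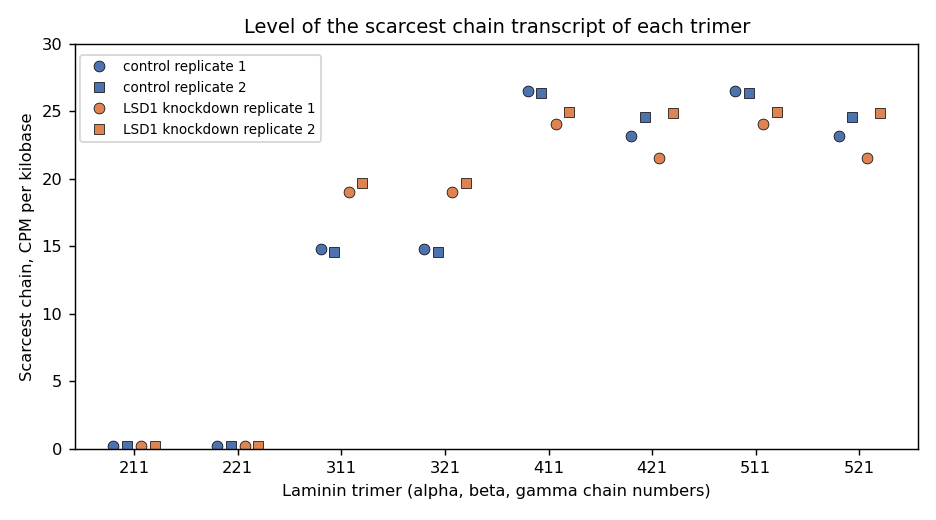
CPM per kilobase of the scarcest of the 3 chain transcripts of each laminin trimer, by library, with symbols as in the plot of all chains and LM111 and LM121 left out because LAMA1 had at most 1 count. LM311 and LM321, read from the long LAMA3 row, are higher in both knockdown libraries, while the groups overlap for LM421 and LM521. Each trimer is drawn on its own, although all of them share LAMC1.

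The other genes of the basement membrane pathway moved in both directions. Of 20 partners of laminin in the basement membrane 16 were tested, of which 4 rose and 3 fell, beside 18.2% higher and 17.9% lower among all tested genes, and the median log2 fold change was 0.05. NID1, which encodes the nidogen that links laminin to collagen IV, rose from 85.2 and 91.6 CPM to 116 and 118 CPM. HSPG2, which encodes the proteoglycan perlecan, stood at 477 and 591 CPM in control and 626 and 745 CPM in knockdown libraries. COL4A5, a collagen IV chain gene, rose 1.54-fold, while COL4A1 and COL4A2, the most widespread collagen IV chains, had log2 fold changes of 0.09 and 0.16 and were not called. The secreted glycoprotein gene SPARC also rose, by a log2 fold change of 1.97. NTN4, which encodes a netrin that binds laminin gamma chains and disturbs laminin networks, fell by 0.41 on the log2 scale. LOXL2, a lysyl oxidase that crosslinks collagen IV, fell by 0.92 and COL18A1 by 0.53 on the log2 scale.

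Of 14 genes listed here as laminin receptors or tied to them 13 were tested. Of these 3 rose and 6 fell, beside 18.2% and 17.9% of all tested genes, and the median log2 fold change was -0.19. The genes of this list that fell numbered 4 with no normalization factor, and 7 with limma-voom or with the replicate number as a block. Fewer fell when any single library was left out, and fewer rose without control replicate 1 or without knockdown replicate 1. The genes that rose in the main fit were DAG1, which encodes dystroglycan, ITGA6, the integrin alpha 6 gene, and BCAM, a receptor for laminin alpha 5. DAG1 went from 109 and 109 CPM to 143 and 159 CPM and ITGA6 from 350.2 and 349 CPM to 437 and 416 CPM. SDC1, a syndecan gene, fell from 247 and 259 CPM to 133 and 144 CPM, and ITGA3, ITGA2 and SDC4 fell by log2 fold changes between -0.66 and -0.34. RPSA and CD151 fell by 0.22 each on the log2 scale, near the threshold (edgeR adjusted p = 0.0372 and 0.0377). Of 18 genes that glycosylate dystroglycan, and so make it able to bind laminin, 16 were tested. Of these 6 rose and 1 fell, beside 18.2% and 17.9% of all tested genes, and the median log2 fold change was 0.13. Among those that rose, LARGE2 was 1.68-fold higher, B4GAT1 1.53-fold and POMT1 1.36-fold, while GMPPB, which makes a sugar donor, fell by 0.50 on the log2 scale. In DESeq2 5 genes of this list rose and 0 fell. Both the number that rose and the number that fell also shifted when control replicate 2 was left out.

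All 8 hemidesmosome genes were tested, of which 2 rose and 3 fell, beside 36.1% of all tested genes called in either direction. PLEC, which encodes the linker plectin, fell from 2490 and 2819 CPM to 1729 and 2159 CPM, and DST by 0.28 on the log2 scale. KRT5, a basal keratin gene, had 7 and 6 counts in control and 46 and 25 counts in knockdown libraries. KRT14, another basal keratin gene of this list, had 18 and 12 counts against 14 and 24 and was not called. CD151 and ITGA6, counted above in the receptor list, belong to this list too. Without knockdown replicate 1 only 1 of these genes was called higher. Of 13 protease genes that act on laminin or its neighbours 6 were tested, of which 1 rose and 1 fell. Among all tested genes 18.2% were called higher and 17.9% lower. TLL1, which encodes a tolloid-like protease able to process matrix precursors, rose from 25.2 and 27.2 CPM to 55.9 and 53.6 CPM, and PLAU, which encodes urokinase, fell by 0.45 on the log2 scale. Without knockdown replicate 1 the genes of this list that fell were 2.

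Strings of 7 bases that differ in frequency between changed and unchanged genes were picked in earlier work on these data after fold changes were seen, and the duplexes are unknown. The LAMA3 transcript held neither TACTTCG nor the overlapping ACTTCGA, and neither GCGTACA nor the overlapping CGCGTAC, which are the strings whose holders were more often higher after knockdown. At least 1 of these was present in LAMA2, LAMA4, LAMA5, LAMB1, LAMB2 and LAMC1, none of which was called higher. Among 3531 tested genes with transcripts of 4305 to 11426 bases, the range of the family, 23.3% held one, and 32.8% of the holders were called higher against 19.3% of the others. LAMA4 held both CTAGAAG and TAGAAGA, as did LAMA5, whereas LAMB3 held neither and LAMA3 and LAMB1 held TAGAAGA alone. Of the same genes 57.5% held one of this pair, and 18.3% of the holders were called lower against 13.1% of the others. Since the strings were picked from these same data, both differences were built in by that choice and lend no support. Whether these strings bear on LAMA4 was not tested.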

How the data were processed

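RNA was measured by sequencing of total RNA in 4 libraries. The deposited values are raw counts per RefSeq transcript in 38767 rows per library, per the values, since the deposited tables have no header. The submitters' processing notes list TopHat2, HOMER, edgeR, DESeq 1.8.3 and the build hg19 without their roles, and no source used here gives the strand setting.

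Symbols were taken from a RefSeq gene table (37205 rows) and GENCODE release 29 metadata (472 more). A further 1090 rows, with 1.38% to 1.40% of counts, had no symbol and were dropped. The row with the highest mean stood for each symbol. Counts were normalized by TMM, filtered with filterByExpr (count 10, total 15) and tested for the effect of group by quasi-likelihood (edgeR 4.0.16, R 4.3.3), and p-values were adjusted over 13252 genes after Benjamini and Hochberg. LAMA1 did not pass the filter. Standard errors are the log2 fold change divided by the root of F.

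Transcript lengths and overlaps came from GENCODE, which is of another build than hg19. The match of a RefSeq row to a GENCODE transcript ignores versions, so lengths are approximate. With 2 libraries a group, the p-values lean on a spread estimated over many genes. Floors of 3 counts cover counting error only.

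The members and the gene lists were chosen with earlier results of these data known. Named genes were KDM1A, every laminin chain, the other rows of the chains, and up to 4 called genes per list with the smallest adjusted p, or all where 5 or fewer were called in a direction. COL4A1, COL4A2, SDC4, RPSA, CD151 and KRT14 were named after their values were seen. Alternatives were DESeq2 1.42.0, its size factors in edgeR, total counts alone, all genes unfiltered, a minimum of 1 CPM, limma-voom (limma 3.58.1), the replicate number as a block, sums of rows, the longest transcript row and leaving out each library. Other rows of LAMA2, LAMA3, LAMA4 and LAMB3, the short LAMA3 row in the shares and coding length in the levels and trimers were added after the data were seen. Some genes of the lists are counted in them but not reported here by name.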

Additional observations from a re-analysis of the deposited data

How the results depend on the processing

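The rise of LAMA3 was called under all 16 alternatives, with log2 fold changes from 0.37 to 0.47, and 1 chain was called higher in every setting. Calls of chains that fell were less steady. One chain in place of 2 was called lower with no normalization factor, with no filter and with DESeq2, in each case because LAMB3 was lost, at -0.35, -0.39 and -0.39. Leaving out each library gave a LAMB3 value from -0.57 to -0.17, a LAMA4 value from -0.36 to -0.20 and a LAMA5 value from -0.38 to -0.088. None of these fits called LAMA4 and LAMB3 together. The uncalled LAMA2 and LAMB2 changed sign there, with ranges from -0.080 to 0.13 and from -0.15 to 0.053. The short rows NM_001105208 and NM_001105209 gave -0.32 and -0.31 for LAMA4, uncalled. DESeq2 called 1461 genes higher and 1556 lower, against 2414 and 2375 with edgeR; the cause was not tested.

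Deviations of same-numbered libraries from their group means correlated at 0.0675 over 13252 genes and at 0.138 over the 10938 genes that averaged 5 CPM or more. The labels do not say that a number marks a shared batch, so the numbers were not taken as pairs. With the replicate number as a block, LAMA5 was called lower at -0.23 (edgeR adjusted p = 0.0107), no other chain changed its call, and 2632 genes were higher and 2631 lower.

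With coding length in place of transcript length the LAMA4 share was 44.2% in control and 39.6% in knockdown cells, the LAMA5 share 38.5% in control and the LAMB3 share 4.15% in knockdown cells. With the short LAMA3 row the shares were 21.6% and 30.9% for LAMA3, 38.9% and 33.6% for LAMA4, and 39.4% in control for LAMA5. The longest transcript row is the row used for every chain. With the long LAMA3 row, coding length left LAMA3 the scarcest chain of LM311 and LM321, and LAMB2 stayed that of LM421 and LM521. With the short row LAMB2 was the scarcest chain of LM321 in both knockdown libraries under either length. Depth limits LAMA1 and LAMA2.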
